A study of Mus musculus with 28 samples.

Results

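Nr4a1 and Nr4a2 encode orphan nuclear receptors of the NR4A family, and their transcripts were followed here in the whole brain of 28 mice. They are 2 of the 8251 genes that have a single-gene probe set on the Affymetrix U74Av2 array. Every probe set whose only annotated gene symbol is Nr4a1 or Nr4a2 was taken, which gave 3 of 12488 probe sets: 1 for Nr4a1 and 2 for Nr4a2. Of the Nr4a2 pair, the probe set with the higher mean signal stands for the gene unless the second, dimmer one is named. The family's remaining member, Nr4a3, is in gene lists used below but was not among their measured genes.

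NR4A proteins bind DNA through zinc fingers like other nuclear receptors, but bulky side chains fill their ligand pocket, and no hormone is firmly known to drive them. Their activity therefore follows mainly from how much protein a cell makes, and the genes are immediate early genes, transcribed within minutes of calcium or cAMP signals without new protein synthesis. In the brain Nr4a1, also called Nur77, is induced by neuronal activity, while Nr4a2, also called Nurr1, is required for the development and upkeep of midbrain dopamine neurons and is also induced by activity in other neurons.

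The study set mice taken 1 hour after a nicotine injection had made them seize against mice given no treatment, in 3 genotypes on a C57BL/6J background that differ in nicotinic acetylcholine receptors, the cation channels that nicotine opens. The alpha7 +/T mice carry the L250T change in 1 copy of the alpha7 subunit gene (5 seized mice of 8 weeks, 5 untreated mice of 6 to 8 weeks), and the beta4 -/- mice lack the beta4 subunit (4 seized mice of 7 to 8 weeks, 5 untreated mice of 6 to 9 weeks). The wild-type mice have neither change (3 seized mice of 7 to 8 weeks, 6 untreated mice of 6 to 9 weeks). Both sexes were used. The intraperitoneal dose was set for each genotype so that seizures were alike, so that genotype and dose cannot be told apart among seized mice, and the doses were not stated in the material used. No mice were injected without seizing, so that seizure, nicotine and injection cannot be told apart. Of the 16 untreated mice, 8 were 6 weeks old, whereas 0 of the 12 seized mice were.

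Array quality split the arrays into 2 classes that matter for Nr4a2. On 9 arrays the Gapdh control signal at the 3′ end over that at the 5′ end had a log2 ratio between -0.48 and 0.096 (low-ratio arrays), and on the other 19 it lay between 1.13 and 2.57 (high-ratio arrays). The low-ratio class held 3 of 5 seized and 2 of 5 untreated alpha7 +/T mice, 2 of 4 seized and 2 of 5 untreated beta4 -/- mice, and no wild-type mouse. In the test of class, 26.7% of 7350 probe sets were higher on low-ratio arrays and 25.4% lower. The summed signal of 9 neuronal marker genes was between 8641 and 14064 in every mouse, a check of the labelled tissue. In seized alpha7 +/T mouse 2 the 4 measured pituitary genes summed to 10980.5 against 207.5 to 516.1 on all other arrays, and its Nr4a1 signal lay within its own group. The altered receptor genes gave no check of the labels. Chrna7 signal in untreated mice differed by 0.19 ± 0.38 (log2, SE) between alpha7 +/T and wild-type (limma adjusted p = 0.73), and Chrnb4 was not analysed here.

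The DNA just upstream of a transcription start of each gene is shown because NR4A genes are known to be switched on by cAMP and calcium signals through their promoters. Each line gives 250 bases before a RefSeq transcription start (GRCm38.p6), at chr15:101266596-101266845 on the plus strand for Nr4a1 and chr2:57124004-57124253 on the minus strand for Nr4a2. The Nr4a1 window lies inside the annotated gene (chr15:101253902-101274795), before an internal start. That of Nr4a2 adjoins the end of its gene (chr2:57106830-57124003). The windows are thus not placed alike, and other starts of Nr4a1 were not examined. Capitals mark CGTCA or its reverse complement TGACG, the core of the cAMP response element bound by CREB, a motif singled out after the sequences were read.
Nr4a1: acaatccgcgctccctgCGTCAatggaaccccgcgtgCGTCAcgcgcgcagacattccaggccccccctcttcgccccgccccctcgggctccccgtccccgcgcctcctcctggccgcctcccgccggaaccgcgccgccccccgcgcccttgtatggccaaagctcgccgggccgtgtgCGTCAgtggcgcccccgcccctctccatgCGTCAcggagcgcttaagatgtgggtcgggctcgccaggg
Nr4a2: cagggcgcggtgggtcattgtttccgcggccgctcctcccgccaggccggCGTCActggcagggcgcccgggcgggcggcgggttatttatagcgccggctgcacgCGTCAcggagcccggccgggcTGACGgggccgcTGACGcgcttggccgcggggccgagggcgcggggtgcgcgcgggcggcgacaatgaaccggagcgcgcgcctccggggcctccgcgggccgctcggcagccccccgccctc
Each promoter held 4 such cores, and none of the 4 overlapped another. At least 1 core occurred in 17.8% of the 32851 mouse promoters of this length, and at least 4 occurred in 0.137%. The cores of Nr4a1 all lay on the gene's own strand, starting 233, 213, 69 and 40 bases before the start. Those of Nr4a2 started 200 and 144 bases before it on the same strand and 123 and 111 bases before it on the opposite strand. Both promoters were rich in G and C, with 74.4% for Nr4a1 and 80.0% for Nr4a2, and 95.4% and 98.8% of promoters had less. The share with at least 4 cores among promoters of like G and C content was not counted.

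Other motifs were searched on both strands in the same windows. The EGR motif GCGNGGGCG occurred once in each promoter and in 4.70% of all promoters. The full palindrome TGACGTCA (1.55% of promoters), the AP-1 motif TGANTCA (6.75%), the NR4A monomer motif AAAGGTCA (1.34%) and the CArG box (1.47%) had 0 matches in either. The Nr4a2 window alone held a MEF2 motif (2.92% of promoters), which overlapped a TATAAA match on the opposite strand (12.4% of promoters). Letters in these windows describe the sequence and say nothing of which factors bound it in these mice.

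Nr4a1 transcript was higher in every seized mouse than in every untreated mouse. The 12 seized mice had signals from 408 to 1071 (median 500, MAS5 signal in arbitrary units), and the 16 untreated mice had signals from 110 to 334 (median 210). The lowest seized value was 1.22 times the highest untreated one. The share of all probe sets that separate in this way was not counted, here, within a genotype or within an array class. Groups of few mice can also separate by sampling alone. The rise averaged over the genotypes was 2.82-fold, or 1.49 ± 0.15 on the log2 scale (SE, 95% interval 1.19 to 1.80), with a limma adjusted p of 1.18e-06. Of 7350 probe sets, 24 (0.327%) were called higher in that comparison, and Nr4a1 had the smallest p of all and the second largest rise. In RNA from whole brain, more RNA per cell and more cells with the transcript cannot be told apart.

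In alpha7 +/T mice the seized animals were tightly grouped and stood well clear of the untreated ones. Nr4a1 signals were 477, 440, 437, 517 and 441 in the 5 seized alpha7 +/T mice, against 110, 207, 230, 123 and 184 in the 5 untreated ones. Their means were 462 ± 34.7 in seized and 171 ± 52.5 in untreated mice (SD, n = 5 each). The lowest seized mouse was 1.90 times the highest untreated mouse, and seized values spanned only a 1.18-fold range. The rise was 2.82-fold (log2 1.49 ± 0.25, SE, limma adjusted p = 0.0015), in a comparison that called 126 probe sets higher (1.71%) and 1.09% lower.

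The summed vascular marker signal was lower in the seized mice of this genotype, and also in seized wild-type mice. The 6 measured endothelial and pericyte genes summed to between 654 and 893 in seized alpha7 +/T mice and between 982 and 1654 in untreated ones. In alpha7 +/T mice 2 of the 6 fell and 1 rose, where 1.09% of all probe sets were called lower and 1.71% higher. In wild-type mice the sums were 765 to 833 in seized and 847 to 1395 in untreated mice. In beta4 -/- mice they overlapped, at 768 to 1081 in seized and 744 to 1079 in untreated mice. Over the average of genotypes 1 of the 6, Eng, a coreceptor of vessel lining cells, fell by 0.57 ± 0.12 (log2, SE, limma adjusted p = 0.028). In that comparison 0.0816% of all probe sets were called lower. The part of these shifts in the Nr4a1 results was not tested. Without seized alpha7 +/T mouse 2, the mouse with pituitary transcripts, the Nr4a1 rise in this genotype was 1.51 ± 0.26 (log2, SE, limma adjusted p = 0.0043).

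In beta4 -/- mice the Nr4a1 signals were 887, 504, 639 and 748 in the 4 seized mice, against 284, 334, 234, 276 and 147 in the 5 untreated mice. The groups did not overlap, with the lowest seized mouse at 1.51 times the highest untreated mouse. Means were 694 ± 162 in seized (SD, n = 4) and 255 ± 69.8 in untreated mice (SD, n = 5), and the rise was 2.76-fold (log2 1.47 ± 0.26, SE, limma adjusted p = 0.041). Nr4a1 was the single probe set called higher in this genotype (0.0136% of 7350). That call lies close to the threshold and was lost in 19 of 28 fits that left out 1 mouse, with adjusted p-values from 0.0064 to 0.46, while the log2 rise stayed between 1.28 and 1.61.

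In wild-type mice 1 seized animal stood far above its group. Nr4a1 signals were 1071, 495 and 408 in the 3 seized wild-type mice, against 303, 169, 219, 214, 170 and 205 in the 6 untreated ones. Set against the untreated geometric mean, the seized mice were 5.12-fold, 2.37-fold and 1.95-fold higher, and the groups did not overlap. Means were 658 ± 360 in seized (SD, n = 3) and 213 ± 49.0 in untreated mice (SD, n = 6). The rise was 2.87-fold (log2 1.52 ± 0.27, SE, limma adjusted p = 0.017), and 4 probe sets were called higher (0.0544%). Without seized mouse 1 it was 1.10 (adjusted p = 0.65), without seized mouse 2 it was 1.66 (adjusted p = 0.12), and without untreated mouse 2 it was 1.46 (adjusted p = 0.059), so that the call in this small genotype rests on single animals.

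**Figure D1:**
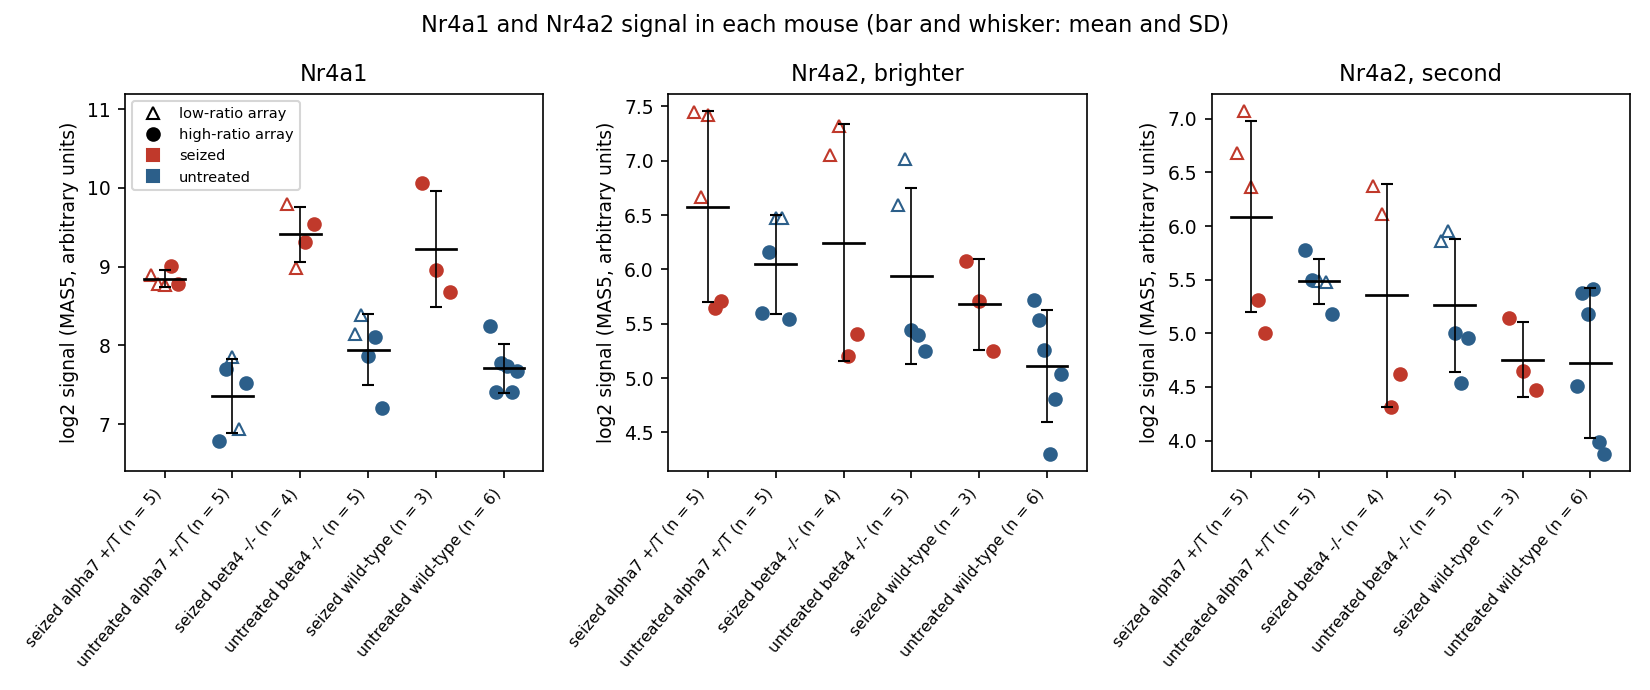
Log2 MAS5 signal of each Nr4a probe set in every mouse, by genotype with seized (red) left of untreated (blue); open triangles are low-ratio arrays and filled circles high-ratio arrays, and the bar and whiskers give the group's mean and SD. All 12 seized mice lie above all 16 untreated mice for Nr4a1, whereas for the brighter Nr4a2 probe set the open triangles lie above all filled circles, seized or not.

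The Nr4a1 response did not differ detectably between genotypes. The response in alpha7 +/T mice minus that in wild-type mice was -0.029 on the log2 scale (95% interval -0.78 to 0.73), and that in beta4 -/- minus wild-type was -0.056 (-0.83 to 0.72). The response in alpha7 +/T minus that in beta4 -/- mice was 0.027 (-0.71 to 0.76). The F test of interaction gave limma adjusted p = 1.00, with 2 of 7350 probe sets called (0.0272%). These intervals are wide, and they do not show that the genotypes responded alike.

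Levels of Nr4a1 were ordered by treatment before genotype. Group means ran from seized beta4 -/- (694) through seized wild-type (658) and seized alpha7 +/T (462) down to untreated beta4 -/- (255), untreated wild-type (213) and untreated alpha7 +/T mice (171). Within each treatment no neighbouring pair passed the test. Seized alpha7 +/T mice minus seized wild-type mice gave -0.38 ± 0.28 (log2, SE, limma adjusted p = 0.53, 0% of probe sets called higher), and without seized wild-type mouse 1 this difference turned to 0.037. Seized beta4 -/- minus seized wild-type gave 0.18 ± 0.30 (adjusted p = 0.87, 0% called higher).

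The lowest and highest genotypes differed by about as much in both treatments. Among seized mice alpha7 +/T minus beta4 -/- was -0.56 ± 0.26 (log2, SE, limma adjusted p = 0.78, 0.068% of probe sets called). Among untreated mice it was -0.59 ± 0.25 (adjusted p = 0.17, 2.48% called). Neither passed after adjustment, and all alpha7 +/T arrays carry one title prefix and all beta4 -/- arrays the other, so that genotype and prefix cannot be told apart there. Against untreated wild-type mice, untreated alpha7 +/T mice differed by -0.35 ± 0.23 (adjusted p = 0.28, 7.73% called higher and 8.29% lower) and untreated beta4 -/- mice by 0.24 ± 0.23 (adjusted p = 0.64, 0% called higher). The alpha7 +/T differences from wild-type were larger with title prefix as a covariate, at -0.73 in seized (adjusted p = 0.48) and -0.61 in untreated mice (adjusted p = 0.14). Median centring gave -0.59 both in seized (adjusted p = 0.31) and in untreated mice (adjusted p = 0.063). For beta4 -/- mice the prefix covariate gave 0.35 in seized and 0.50 in untreated mice. Prefix varies among wild-type mice alone, and the sole seized wild-type mouse with the prefix of the alpha7 +/T arrays is mouse 1. That mouse stood far above its group, so the prefix values rest partly on it.

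For Nr4a1 none of array class, sex, age and title prefix passed the test. Low-ratio minus high-ratio arrays of the same group differed by 0.12 ± 0.18 (log2, SE, limma adjusted p = 0.58). On the 19 high-ratio arrays the average rise was 1.60 ± 0.19 (adjusted p = 0.00024, 0.163% of probe sets called), and on the 9 low-ratio arrays, which hold mutants alone, it was 1.27 ± 0.20 (adjusted p = 0.015, 1.24% called). Low-ratio values were 437 to 887 in 5 seized mice and 123 to 334 in 4 untreated mice, and high-ratio values were 408 to 1071 in 7 seized and 110 to 303 in 12 untreated mice, without overlap in either class. Males minus females differed by 0.26 ± 0.15 (adjusted p = 0.47), a week of age by -0.029 ± 0.093 (adjusted p = 0.98) and the B4 minus the LT prefix by -0.52 ± 0.25 (adjusted p = 0.74). The prefix value comes from wild-type mice alone. Among mice of 7 weeks or older the average rise was 1.49 ± 0.19.

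**Figure D2:**
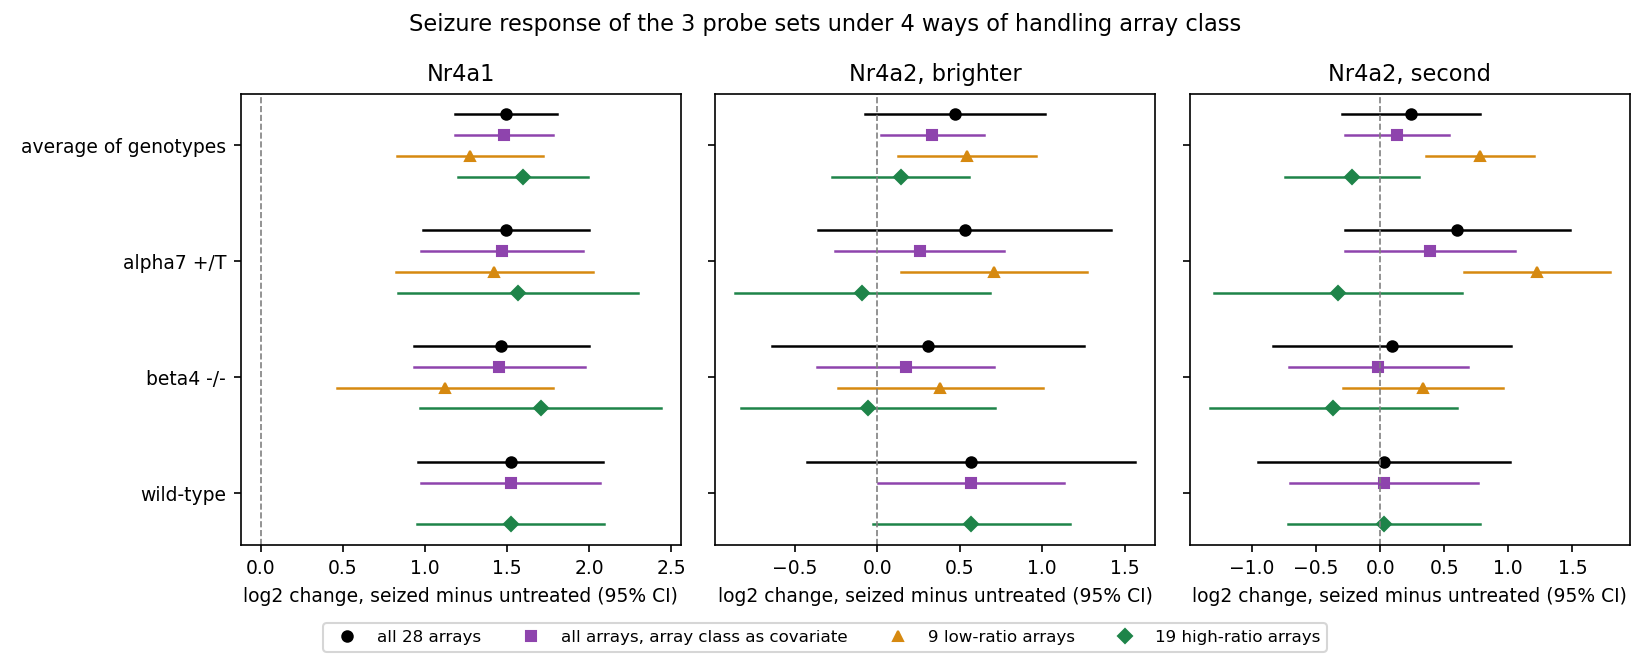
Log2 change of each probe set in seized minus untreated mice with its 95% interval, for the average of genotypes and each genotype, over all 28 arrays, with array class as a covariate, and on low-ratio or high-ratio arrays alone (no wild-type mouse is in the low-ratio class). Nr4a1 stays between 1.12 and 1.70 throughout, whereas the Nr4a2 values of alpha7 +/T and beta4 -/- mice lie above 0 on low-ratio arrays and below 0 on high-ratio arrays.

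Nr4a2 showed no seizure response that passed the test in any genotype. Averaged over genotypes it differed by 0.47 ± 0.27 on the log2 scale (SE, 95% interval -0.075 to 1.01, limma adjusted p = 0.65), a 1.38-fold difference whose interval includes no change. It was 0.14 ± 0.20 on high-ratio arrays and 0.82 ± 0.38 among mice of 7 weeks or older, neither of which passed. With array weights it was 0.89 ± 0.22 and passed (limma adjusted p = 0.016). That fit called 645 of 7350 probe sets, against 30 without weights, and the second Nr4a2 probe set did not pass in it (0.61 ± 0.23, adjusted p = 0.083). The 12 seized mice had signals from 36.9 to 175 (median 59.9), and the 16 untreated mice from 19.7 to 129 (median 46.4), so that the treatments overlapped widely. Only 4 of the 12 seized mice lay above every untreated mouse. The transcript was weakly measured, with signals above the array's own median on 16 of 28 arrays, where Nr4a1 was above it on all 28.

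The 2 array classes separated completely for Nr4a2. All 9 low-ratio arrays had signals from 88.5 to 175, and all 19 high-ratio arrays had signals from 19.7 to 71.4, so that no array of one class reached the other. This was not particular to Nr4a2, as Aplp2 and Srpr, described below, also separated. The share of probe sets that separate by class was not counted. Low-ratio minus high-ratio arrays of the same group differed by 1.36 ± 0.18 (log2, SE, 2.57-fold, limma adjusted p = 5.7e-07). As 26.7% of all probe sets were also higher on low-ratio arrays, this shift is shared with many transcripts. With array class as a covariate, the average Nr4a2 change in seized mice was 0.33 ± 0.15 (limma adjusted p = 0.32), that in alpha7 +/T mice 0.26 ± 0.25 and that in beta4 -/- mice 0.17 ± 0.26.

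In alpha7 +/T mice the Nr4a2 signals were 175, 101 and 172 in the 3 seized mice on low-ratio arrays and 49.9 and 52.4 in the 2 on high-ratio arrays. The untreated alpha7 +/T mice had 88.9 and 88.5 on low-ratio arrays and 48.4, 71.4 and 46.6 on high-ratio arrays. On low-ratio arrays every seized mouse was therefore above both untreated mice, and on high-ratio arrays the groups overlapped. The fitted change was 0.53 ± 0.43 over all arrays (log2, SE, limma adjusted p = 0.57), 0.71 ± 0.26 on low-ratio arrays and -0.090 ± 0.37 on high-ratio arrays.

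In beta4 -/- mice the Nr4a2 signals were 133 and 159 in seized mice on low-ratio arrays and 36.9 and 42.4 on high-ratio arrays, against 96.5 and 129 on low-ratio and 43.4, 42.1 and 37.9 on high-ratio arrays in untreated mice. Seized values were again the higher ones on low-ratio arrays and overlapped the untreated ones on high-ratio arrays. The fitted change was 0.31 ± 0.46 over all arrays (log2, SE, limma adjusted p = 1.00), 0.38 ± 0.28 on low-ratio arrays and -0.054 ± 0.37 on high-ratio arrays.

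Wild-type mice, all on high-ratio arrays, had Nr4a2 signals of 67.5, 52.3 and 38.0 when seized, against 19.7 to 52.8 (median 35.5) in the 6 untreated mice. All 3 seized mice lay above the untreated mean of 36.3 ± 12.1 (SD, n = 6), and 1 lay above every untreated mouse. The seized mouse with the most Nr4a2 was also the one with the most Nr4a1. The change was 0.57 ± 0.48 (log2, SE, limma adjusted p = 1.00). With the second probe set 1 of the 3 seized mice lay above the untreated mean and 0 lay above every untreated mouse. Its change was 0.030 ± 0.48.

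The second Nr4a2 probe set was weaker still, above its array's median on 8 of 28 arrays, 7 of them low-ratio, so that it met the filter on low signals through that class alone. Its average change was 0.24 ± 0.26 (log2, SE, limma adjusted p = 0.87), and it turned to -0.22 ± 0.25 on high-ratio arrays (adjusted p = 0.78). On low-ratio arrays its signals were 69.3 to 135 in 5 seized mice and 44.7 to 62.0 in 4 untreated mice, without overlap. There the average change was 0.78 ± 0.19 (adjusted p = 0.082, 1.24% of probe sets called) and that in alpha7 +/T mice 1.22 ± 0.26 (adjusted p = 0.017, 9.28% called). The second of these was the sole Nr4a2 seizure contrast within an array class to pass, on 3 seized and 2 untreated mice, and the brighter probe set missed it there. On low-ratio arrays the second probe set was above the array's median in 5 of 5 seized but 2 of 4 untreated mice. In alpha7 +/T mice this was 3 of 3 against 0 of 2. The contrast thus draws on the arrays that let the probe set through the filter, and the call is no separate support for a response.

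Genotype differences of Nr4a2 did not pass either. Untreated alpha7 +/T minus untreated wild-type was 0.94 ± 0.42 (log2, SE, limma adjusted p = 0.11), and untreated beta4 -/- minus untreated wild-type was 0.83 ± 0.42 (adjusted p = 0.39). Among seized mice the alpha7 +/T difference from wild-type was 0.90 ± 0.50 (adjusted p = 0.44), and that of beta4 -/- was 0.57 ± 0.52 (adjusted p = 0.78). Wild-type mice have no low-ratio array, so the same differences are given on high-ratio arrays alone. There the seized differences turned to -0.0017 for alpha7 +/T and -0.37 for beta4 -/-, and the untreated ones were 0.66 for alpha7 +/T (adjusted p = 0.20) and 0.25 for beta4 -/-. With array class as a covariate the untreated differences were 0.40 for alpha7 +/T and 0.28 for beta4 -/-. Group means ran from seized alpha7 +/T (110 ± 61.3, SD, n = 5) and seized beta4 -/- (92.9 ± 62.5, n = 4) through untreated beta4 -/- (69.8 ± 41.0, n = 5), untreated alpha7 +/T (68.8 ± 20.7, n = 5) and seized wild-type (52.6 ± 14.8, n = 3) to untreated wild-type (36.3 ± 12.1, n = 6).

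The measured responses of the genes differed from each other in the same brains, but Nr4a2 was weakly measured. Its signal was above the array's own median on all 9 low-ratio arrays but on only 7 of the 19 high-ratio arrays. Whether weak signal lowered the measured Nr4a2 change, and so widened the difference, was not tested. The log2 ratio of Nr4a1 to Nr4a2 signal was taken on each array, and seized minus untreated was averaged over genotypes, which gives the change of Nr4a1 minus that of Nr4a2. It was 1.02, a 2.03-fold larger rise of Nr4a1 (two-sided permutation test within genotypes, 100000 resamples, p = 0.00089). With the second Nr4a2 probe set it was 1.25 (same permutation test, p = 0.0003). Within high-ratio arrays it was 1.46 (exact permutation test, p = 0.00036), and within the 9 low-ratio arrays it was 0.73 (exact permutation test, p = 0.05, 60 permutations). Among mice of 7 weeks or older it was 0.67 (exact permutation test, p = 0.11), so that the difference was not detectable once the youngest animals were left out.

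**Figure D3:**
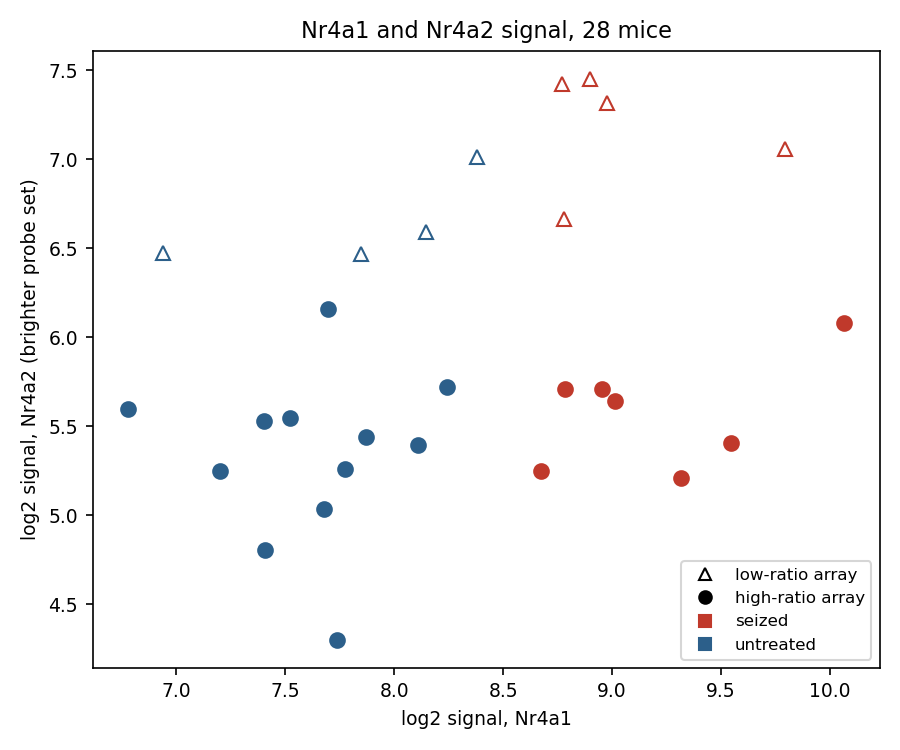
Log2 signal of Nr4a2 (brighter probe set, vertical) against that of Nr4a1 (horizontal) in each of 28 mice, seized in red and untreated in blue, with open triangles for low-ratio and filled circles for high-ratio arrays. Treatment separates the mice along the Nr4a1 axis, and array class separates them along the Nr4a2 axis.

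Across the 28 arrays the members had a Pearson r of 0.35 on log2 signal and 0.28 on deviations from group means. On the 9 low-ratio arrays r was 0.67, and on the 19 high-ratio arrays 0.31; with the second Nr4a2 probe set these were 0.70 and -0.22. The 2 Nr4a2 probe sets correlated at 0.78 with each other, and at 0.33 on the 19 high-ratio arrays alone. These points share groups and array class, and the coefficients are descriptions. For each gene the probe set with the highest r was taken. The transcripts most like Nr4a1 over the 28 arrays were those of early genes: Fos (r = 0.92), Egr1, Egr2 and Junb (each 0.79), which encode transcription factors, and Dusp1 (0.79), which encodes a phosphatase of MAP kinases. On deviations from group means, where the shared treatment is taken out, Dusp1 (0.73), Fos (0.69), Sox3 (0.67), Ddx6 (0.66) and Junb (0.64) came closest. In the average seizure comparison the probe sets of Fos, Egr1 and Egr2 passed. Those taken here for Junb (limma adjusted p = 0.058), Dusp1 (0.13), Ddx6 (0.57) and Sox3 (0.98) did not.

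The transcripts most like Nr4a2 were of another kind. On log2 signal they were Cacnb2 (r = 0.93), Ap2b1 (0.92), Aplp2 (0.91), Rora (0.91) and Dlst (0.90), and on deviations they were Srpr (0.94), Prkce (0.94), Aplp2 (0.94), Mobp (0.93) and Vamp2 (0.92). None of these 9 genes' probe sets passed in the average seizure comparison, where 0.327% of all probe sets were called higher and 0.0816% lower. These 9 genes too follow array class. Aplp2, an amyloid precursor-like membrane protein, had signals of 1068 to 1513 on low-ratio arrays and 381 to 757 on high-ratio arrays, and Srpr, a subunit of the signal recognition particle receptor, had 84.7 to 229 on low-ratio and 4.90 to 75.7 on high-ratio arrays.

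No other measured nuclear receptor passed in the average comparison. Of a list of 46 that leaves out both members, 16 were measured, and in the average comparison 0 of 16 passed with limma, 0 had an unadjusted p under 0.05, and their median log2 change was 0.062, against 0.0081 over all 5599 genes tested. Of all 7350 probe sets 0.327% were called higher there and 0.0816% lower, and 635 had an unadjusted p under 0.05. With so few calls, 0 of 16 does not set these receptors apart. Rxra and Rxrb encode retinoid X receptors, which can pair with NR4A1 and NR4A2, and had changes of 0.14 ± 0.11 and -0.011 ± 0.14 (log2, SE). In alpha7 +/T mice 1 of 16 rose, Nr1d2, a clock repressor named here after its values were seen (0.80 ± 0.17, adjusted p = 0.012). There 6 of the 16 had an unadjusted p under 0.05, as had 1350 of all 7350 probe sets. In that comparison 1.71% of all probe sets were called higher and 1.09% lower. The Nr1d2 change was -0.12 ± 0.20 in wild-type and -0.18 ± 0.19 in beta4 -/- mice, and its interaction with genotype gave limma adjusted p = 0.31.

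Measured transcripts of the signalling and transcription factors known to induce NR4A genes did not pass in the average comparison, where few probe sets did. Of 40 listed, 19 were measured, and 0 passed (1 had an unadjusted p under 0.05, median log2 change 0.0068). Over all 7350 probe sets 0.327% were called higher and 0.0816% lower, and 635 had an unadjusted p under 0.05. Mef2c and Mef2d, which encode calcium-regulated factors that act on the Nr4a1 promoter, had changes of 0.030 ± 0.36 and 0.066 ± 0.13 (log2, SE). Such proteins are largely controlled by phosphorylation, which RNA does not show.

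Of 24 coregulators and partners of NR4A proteins, 17 were measured, and 0 passed in the average comparison (0 with an unadjusted p under 0.05, median log2 change -0.045). Of 36 genes described as NR4A targets in various tissues, 17 were measured, and 0 passed (2 with an unadjusted p under 0.05, median 0.0014). Both counts stand beside 0.327% of all probe sets called higher, 0.0816% called lower and 635 of 7350 with an unadjusted p under 0.05. Th, the rate-limiting enzyme of dopamine synthesis, differed by 0.081 ± 0.15 (log2, SE). Txnip, an inhibitor of thioredoxin named here after its values were seen, had the highest value at 0.59 ± 0.16 (limma adjusted p = 0.15).

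Several early transcription factors rose beside Nr4a1. Of 28 listed without the members, 19 were measured, and 10 rose and 0 fell in the average comparison, where 0.327% of all probe sets were called higher and 0.0816% lower, with a median log2 change of 0.60. The 6 with the smallest p were Fos (3.96-fold), Fosb (2.29-fold), Klf10 (1.51-fold), Atf3 (2.27-fold), Egr2 (2.15-fold) and Egr1 (1.52-fold), with SEs between 0.083 and 0.22 on the log2 scale. Ranked among these 19 genes and the 2 members, Nr4a1 came second after Fos, and Nr4a2 came 13th of 21, below Bhlhe40 (0.48) and above Ier2 (0.39). In alpha7 +/T mice 7 of the 19 rose, where 1.71% of all probe sets were called higher.

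**Figure D4:**
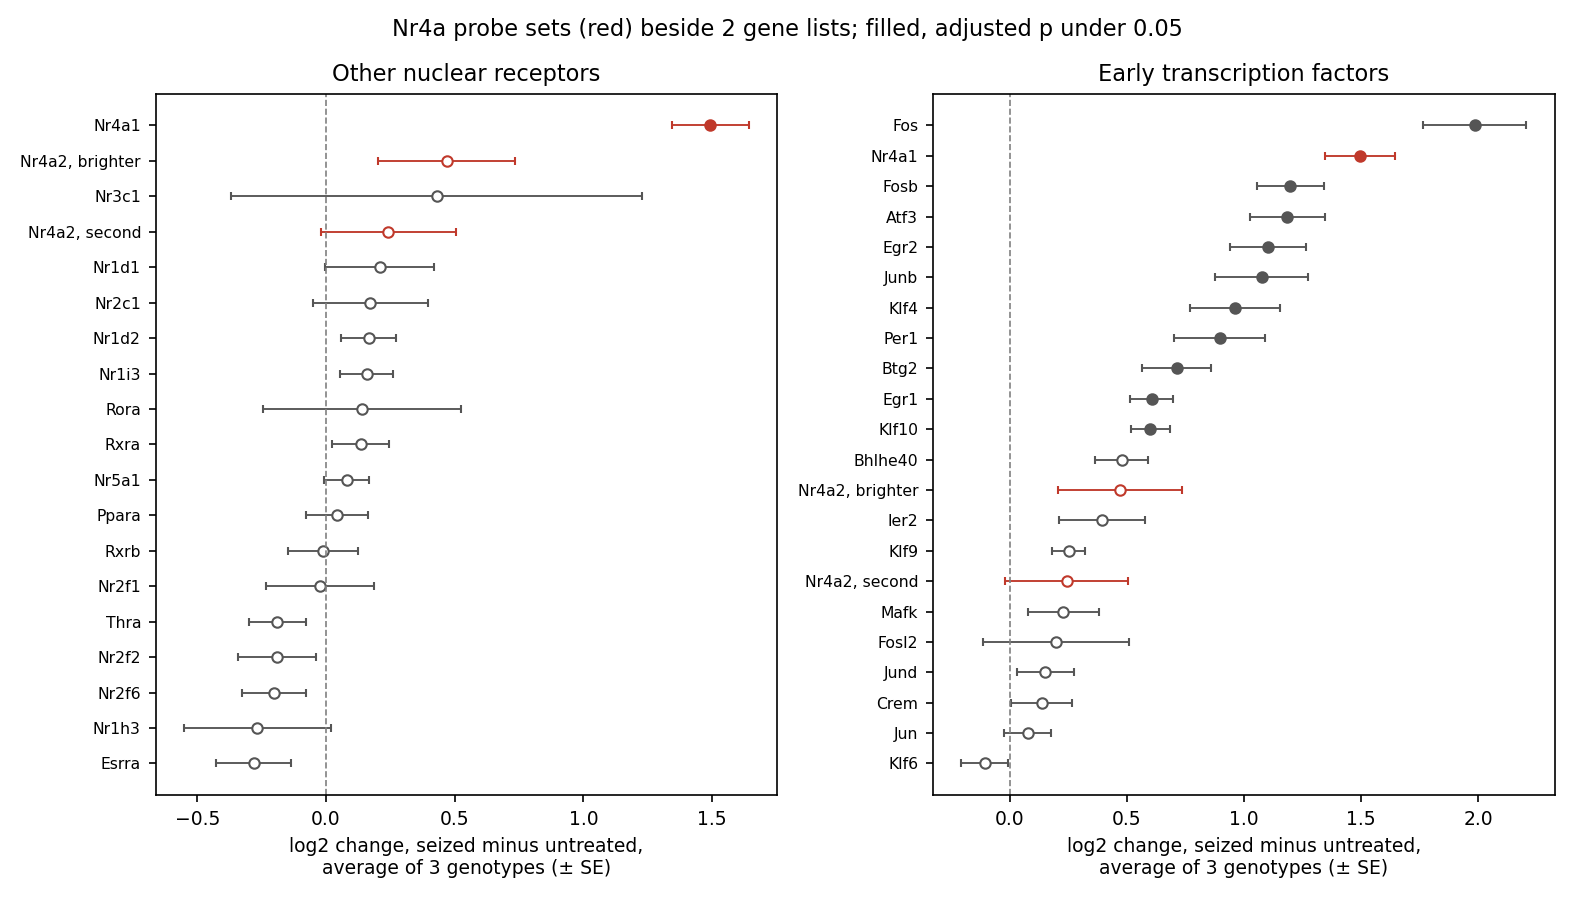
Log2 change in seized minus untreated mice averaged over 3 genotypes, with SE, for the Nr4a probe sets (red) beside 16 other nuclear receptors (left) and 19 early transcription factors (right); filled points passed at an adjusted p under 0.05. Nr4a1 alone is filled on the left at 1.49, and on the right it stands among 10 filled early factors, second to Fos at 1.99.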

How the data were processed

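Total RNA from whole brain was hybridised to 1 Affymetrix U74Av2 array per mouse, per the labels' protocols, so replicates are animals. The deposited values are signal intensity (linear scale). The authors computed them with MAS5, per the submitters' processing notes (version not given in the sources used here). A 2%-trimmed mean was alike on all arrays, and values were used as deposited. No detection calls were used, and precision is limited by the number of arrays. Of 12488 probe sets, 66 controls were left out. Probe sets above their own array's median on at least 3 arrays were kept, which left 7350 (59.2%) of the other 12422 and all 3 Nr4a probe sets. The platform annotation gave 10833 probe sets 1 gene, 396 several, and 1193 were not listed; 10817 were matched by gene ID to RefSeq.

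On log2 values, limma (3.58.1, R 4.3.3; lmFit, eBayes with trend) fitted 6 group means over all 28 arrays. P-values are two-sided, Benjamini-Hochberg adjusted over 7350, with a threshold of 0.05. Average responses weight genotypes equally. The fit was tested on simulated data. Array class is a Gapdh 3′ over 5′ log2 ratio below 0.5 or above it. Members, gene lists, tests and classes were chosen with earlier results of these data known. Named genes are the members, the 5 transcripts closest to each by Pearson r, list members called in the average comparison (at most 6), and fixed partners; genes named after their values were seen are marked so. Of several probe sets of a gene, the brightest is given, except for the closest transcripts, given by the probe set with the highest r. Mice are numbered in accession order. Lists of markers for 12 cell types or tissues were also run. Over the average 0 markers rose, and 1, Eng, fell. Alternatives covered scaling, filters, a signal floor (25th percentile), variance models, array weights, covariates, mice of 7 weeks or older, each array class, compared groups alone, and each mouse left out. Promoters are RefSeq sequences (GRCm38.p6).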

Additional observations from a re-analysis of the deposited data

How the results depend on the processing

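The average Nr4a1 rise passed under all 15 alternatives (log2 1.27 to 1.60) and in all 28 fits that left out 1 mouse (1.35 to 1.59). In single genotypes the sign of the Nr4a1 change held throughout, while calls were lost as follows. In wild-type mice it no longer passed among mice of 7 weeks or older (1.62) or with the compared groups alone (1.52), and leaving out single mice gave 1.10 to 1.80. In alpha7 +/T mice it no longer passed among mice of 7 weeks or older (1.33, with 1 untreated mouse left) or on high-ratio arrays (1.57); leaving out single mice gave 1.35 to 1.62. In beta4 -/- mice it no longer passed with no filter (1.47), eBayes without trend (1.47), an age covariate (1.47), mice of 7 weeks or older (1.52), high-ratio arrays (1.70), low-ratio arrays (1.12) or the compared groups alone (1.47), and leaving out single mice gave 1.28 to 1.61. The age, class and compared-group fits hold fewer mice, and the cause of the lost calls was not tested.

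With array weights Nr4a2 passed in the average comparison (0.89), in seized alpha7 +/T against wild-type mice (1.22, and 1.57 for the second probe set) and in seized beta4 -/- against wild-type mice (1.17 and 1.21); the cause was not tested. The change of the second Nr4a2 probe set in alpha7 +/T mice passed on low-ratio arrays (1.22), the class through which it met the filter. On high-ratio arrays signs turned for Nr4a2 in alpha7 +/T (-0.090) and beta4 -/- responses (-0.054), in seized alpha7 +/T (-0.0017) and seized beta4 -/- against wild-type mice (-0.37), and for the second probe set in the average (-0.22), in alpha7 +/T (-0.33) and beta4 -/- responses (-0.36) and in seized beta4 -/- against wild-type mice (-0.29). With array class as a covariate, signs turned for the second probe set in beta4 -/- mice (-0.014) and for Nr4a2 in seized beta4 -/- against wild-type mice (-0.11). For the second probe set in wild-type mice, quantile normalization gave -0.046 and median centring -0.028.

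Leaving out single mice put the wild-type change of the second probe set between -0.16 and 0.17, the beta4 -/- change of Nr4a2 between -0.048 and 0.66 and that of the second probe set between -0.25 and 0.44. For Nr4a1 it gave -0.66 to 0.037 in seized alpha7 +/T against wild-type mice (above 0 only without seized wild-type mouse 1) and -0.10 to 0.60 in seized beta4 -/- against wild-type mice (below 0 only without seized wild-type mouse 3). The difference between Nr4a1 and Nr4a2 responses no longer passed among mice of 7 weeks or older (0.67) or on low-ratio arrays (0.73), and leaving out single mice gave 0.92 to 1.19. No paired analysis was possible because the labels number no replicates across groups. The filter asking for signal on 14 arrays removed the second Nr4a2 probe set, and the low-ratio arrays hold no wild-type mouse, so neither gave a value there. Weak Nr4a2 signal limits what could be detected.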
